A study of Drosophila melanogaster with 23 samples.

Results

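Rhodopsins are the light-sensing receptor proteins of the fly, and 7 rhodopsin genes were followed here through RNA sequencing of adult Drosophila heads. The genes ninaE, Rh2, Rh3, Rh4, Rh5, Rh6 and Rh7 were chosen by their FlyBase symbols, matched to gene identifiers. They are 7 of 17559 genes measured in 20 libraries and 7 of 12623 genes measured in 3 further libraries. No rhodopsin transcript passed the test against wild type in any of the 4 single heterozygotes. The largest difference from wild type was that of Rh5 in the CHD8 mutant, which did not pass (adjusted p = 0.32 from limma). All 4 mutant libraries were below all 4 wild type libraries, as they were for 1.11% of all genes tested.

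A rhodopsin is an opsin protein bound to a chromophore made from dietary carotenoids, and light activates it to signal through a Gq protein and phospholipase C. Each facet of the compound eye holds outer photoreceptors, named R1 to R6, and inner photoreceptors, named R7 and R8. The outer cells carry the product of ninaE, also called Rh1. The inner cells choose between opsins. An R7 cell carries Rh3 or Rh4 and the R8 cell below it carries Rh5 or Rh6, in pairs that define the pale and the yellow kind of facet. Rh2 belongs to the ocelli, the simple eyes on top of the head, and Rh7 has been placed in clock neurons of the brain.

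The study measured flies heterozygous for a mutation in an ortholog of a human gene associated with autism. The groups were ASH1L/+ (gene ash1), WDFY3/+ (gene bchs), CHD2/+ (gene Chd1) and CHD8/+ (gene kis) with 4 libraries each, the double heterozygote CHD8/+; PP2R5D/+ (genes kis and wrd; the study writes PPP2R5D) with 3, and wild type with 4. The study's list of reagents gives the alleles ash1-mimic, bchs58, chd1[1], kis1 and wrd104, each a single stock, and w1118, a white-eyed strain, as wild type. All heads were taken 5 to 7 days after pupation, and the sex of the flies is not given in the sources used here. Mutation and stock go together, so their effects cannot be told apart. The libraries were made with a kit that reads the 3' ends of polyadenylated transcripts. Fewer cells of a type and less RNA per cell cannot be told apart in whole heads.

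The values are normalized counts as the authors deposited them. They sum to 3982753 to 8558268 per library over the 20 libraries of the single heterozygotes and wild type. The depth behind them, estimated from the worth of 1 read among low values, was 2.81 to 9.94 M reads, where M stands for 1000000. Whole reads could not be recovered, so limma was run on log2 of each value plus 1, with Benjamini-Hochberg adjustment. The 9588 genes with at least 10 in at least 4 libraries were tested, and all 7 rhodopsins passed that filter. A gene was called when its adjusted p was under 0.05 and its change at least 1.5-fold. Markers of photoreceptors, brain neurons and glia were present in each group, none of them at 0 throughout. Over all tested genes, 13 of 16 mutant libraries deviated from their group mean most like the wild type library of their own replicate number. CHD2/+ replicate 2 and CHD8/+ replicates 2, 3 and 4 carried more transcripts of cuticle genes than the rest.

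The genes lie on 3 chromosome arms, with positions taken from the Ensembl gene models of the BDGP6.54 annotation. On arm 3R lie ninaE (FBgn0002940, 19886255 to 19888206, minus strand), Rh2 (FBgn0003248, 18899423 to 18901019, plus strand), Rh3 (FBgn0003249, 20081060 to 20082450, minus strand) and Rh6 (FBgn0019940, 15483158 to 15484699, plus strand). On arm 3L lie Rh4 (FBgn0003250, 16852527 to 16862517, minus strand) and Rh7 (FBgn0036260, 12164205 to 12175482, minus strand). Rh5 (FBgn0014019, 12008153 to 12009832, plus strand) lies on arm 2L. Rh3 has a single exon, and the longest transcript of the others has 2 to 5. The Rh4 gene spans sina, sinah and CG13029 on the opposite strand, and whether the counting used strand is not given in the sources used here. The other 6 rhodopsin genes overlap no annotated gene.

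ninaE, the opsin of the outer photoreceptors, was the highest of the 7 in each of the 20 libraries when levels were divided by mean transcript length. Its level was 16031 ± 3414 normalized counts per kilobase in ASH1L/+, 18725 ± 7466 in WDFY3/+, 11921 ± 2028 in CHD2/+, 16618 ± 4717 in CHD8/+ and 16905 ± 6588 in wild type (SD, n = 4 each). Rh4 came next in each genotype by its mean, with 1394 ± 371 normalized counts per kilobase in wild type, followed by Rh6 with 1048 ± 135 (SD, n = 4 each). Rh4 was above Rh6 in 15 of 20 libraries, and their ranges overlapped in each genotype. Rh2, Rh5 and Rh3 formed a lower tier, at 503 ± 90.3, 433 ± 63.6 and 425 ± 145 normalized counts per kilobase in wild type (SD, n = 4 each). Within that tier the order was not stable, and Rh5 was above Rh3 in 12 of 20 libraries. In CHD8/+ the tier ran Rh2, Rh3, Rh5, with Rh5 below Rh3 in all 4 libraries at 232 ± 23 normalized counts per kilobase (SD, n = 4). Rh7 was the lowest in every library, at 22.1 to 71.4 normalized counts per kilobase over the 20. Because the kit reads 3' ends, counts need not grow with transcript length. Without division by length Rh7 was again the lowest, at 88.9 to 287 normalized counts.

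**Figure D1:**
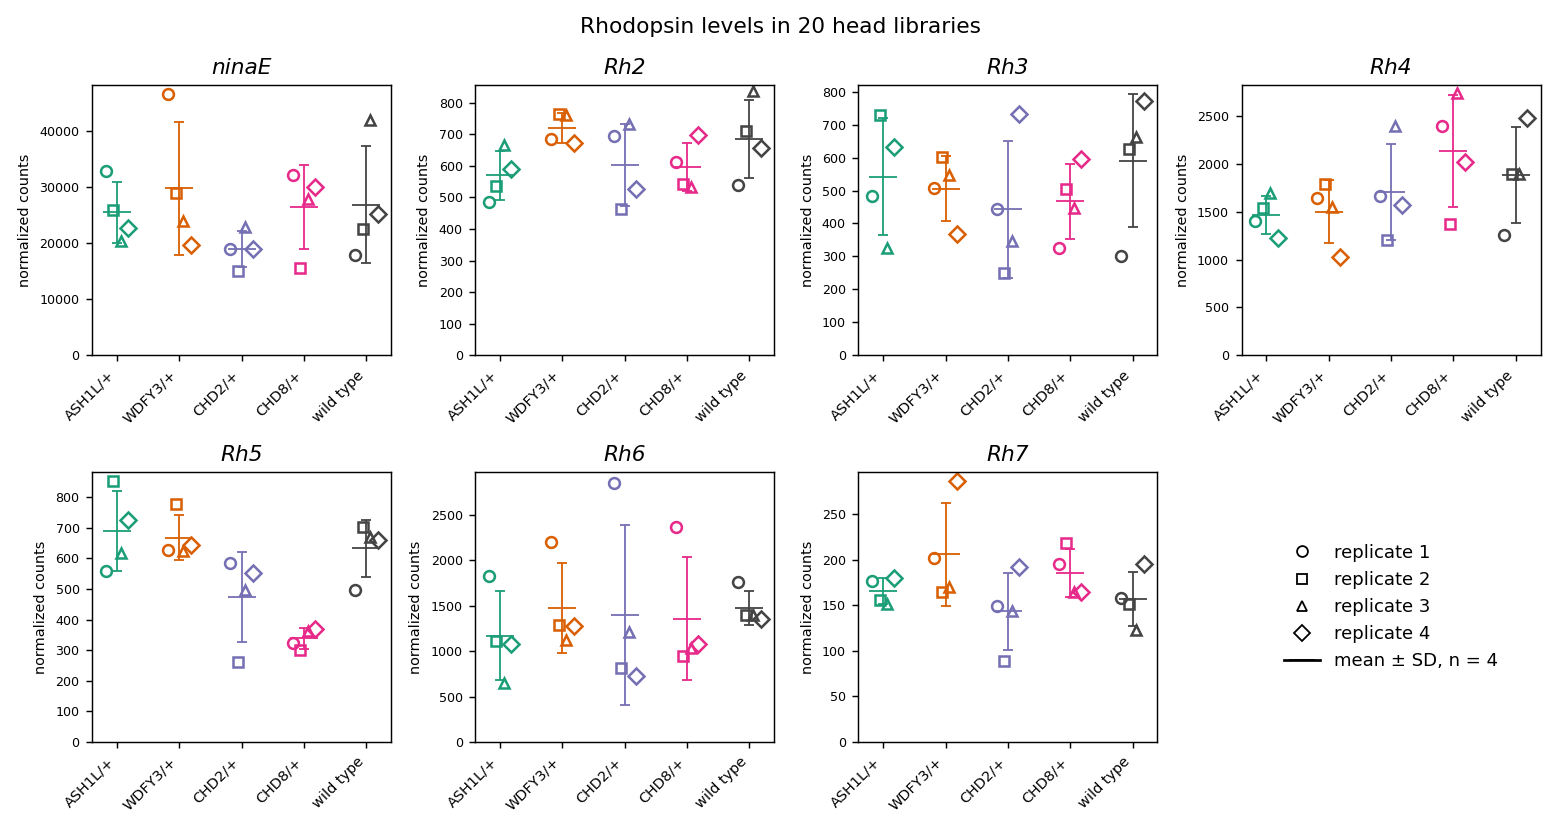
Normalized counts of the 7 rhodopsins (vertical axes, from 0) in the 4 libraries of each mutant and of wild type (horizontal axes); symbols give the replicate number, and bars the mean and SD. The 4 CHD8/+ values of Rh5 sit between 300.2 and 369.9, below the wild type values of 496 to 703, and the replicate 1 values of Rh6 sit above the others in each genotype.

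The first question was whether a heterozygous mutation altered the level of any rhodopsin. No rhodopsin was called in any of the 4 comparisons with wild type, 0 of 7 in each. Over all genes tested, limma called 0.0939% (ASH1L/+), 0.0521% (WDFY3/+), 0.188% (CHD2/+) and 0.271% (CHD8/+). Of the 28 comparisons, 1 had an unadjusted p under 0.05, that of Rh5 in CHD8/+, beside 4.14% of the tests of all genes. A fit that also held a block for each replicate number called 0.209% of all genes (ASH1L/+), 0.25% (WDFY3/+), 1.21% (CHD2/+) and 0.741% (CHD8/+), and again 0 of 7 rhodopsins in each. An F test across the 5 genotypes passed 0.313% of all genes, or 1.2% with the block, and 0 of 7 rhodopsins in either fit.

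**Figure D2:**
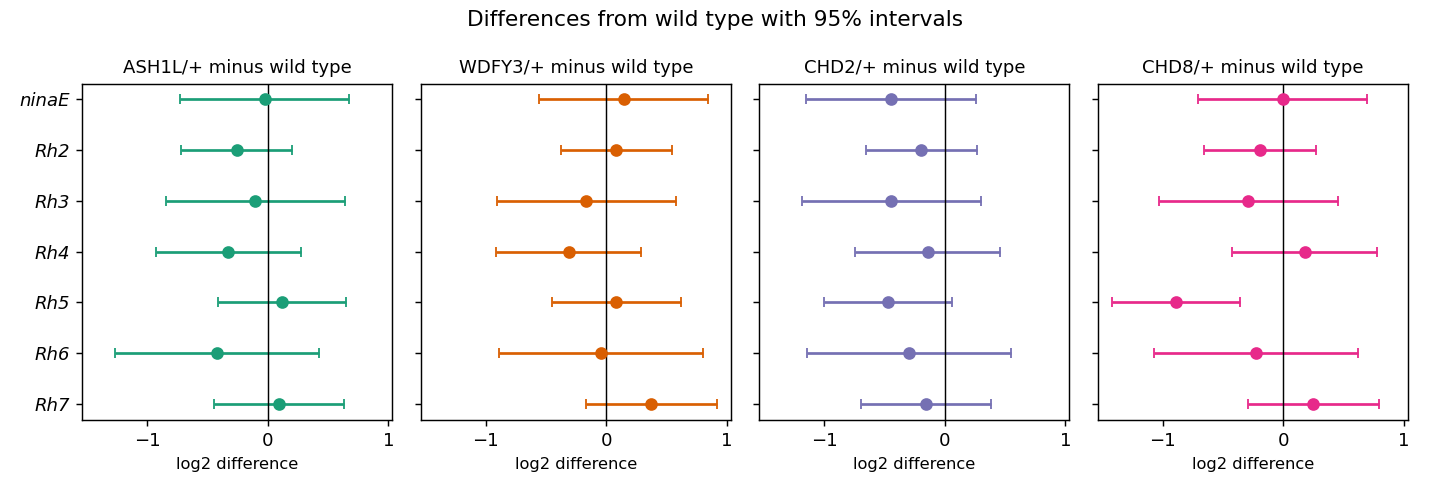
Log2 difference of each mutant from wild type (horizontal axes) for the 7 rhodopsins (rows), with the estimate as a point and its 95% interval from limma as a bar (n = 4 per group). Of the 28 intervals, that of Rh5 in CHD8/+ (-1.42 to -0.36) leaves out 0. The intervals are not adjusted for the number of tests, and the adjusted p of Rh5 in CHD8/+ was 0.32 from limma.

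Rh5, the opsin of pale R8 cells, had 322, 300.2, 364 and 369.9 normalized counts in CHD8/+, against 496, 703, 671 and 661 in wild type. Each CHD8/+ library was therefore below each wild type library. Over all genes tested, the 4 CHD8/+ libraries lay below the 4 wild type libraries for 1.11% and above them for 1.91%, and among the rhodopsins for Rh5 alone and for none. The log2 difference of Rh5 was -0.89 (standard error 0.25, 95% interval -1.42 to -0.36). Its unadjusted p was 0.0023, the 67th smallest of 9588, and its adjusted p was 0.32 from limma, so it did not pass. In the fit with the block the adjusted p was 0.13 from limma, and the F test across genotypes gave adjusted p = 0.30, or 0.086 with the block.

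In the other mutants Rh5 had 557, 854, 618 and 726 normalized counts in ASH1L/+, and 627, 777, 623 and 643 in WDFY3/+. Both sets overlapped wild type, and their log2 differences from it were 0.12 and 0.08. CHD2/+ had 585, 261, 496 and 553 normalized counts of Rh5, with 1 library below the wild type range and a log2 difference of -0.47 (standard error 0.25, adjusted p = 0.71 from limma). Set directly against one another, CHD8/+ differed from ASH1L/+ in Rh5 by -1.01 on the log2 scale and from WDFY3/+ by -0.97 (adjusted p = 0.38 and 0.34 from limma). The difference of CHD8/+ from CHD2/+ was -0.42 (adjusted p = 1.00 from limma). Over 6 pairs of mutants and 7 rhodopsins, 0 of 42 tests were called, beside 0.0296% of the tests of all genes. An unadjusted p under 0.05 was found in 4 of the 42, all of them of Rh5, beside 5.2% over all genes.

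Transcripts of other tissues moved with some of these libraries. The summed level of 8 cuticle genes was 283, 1487, 1386 and 697 normalized counts in CHD8/+, against 289.6, 213, 331 and 301 in wild type, and none of the 8 was at 0 throughout a group. The summed level of 7 muscle genes was 12734, 55439.9, 66822 and 45575 normalized counts in CHD8/+, against 14342, 16876, 25479.6 and 21782 in wild type. In CHD8/+ replicate 1, the library with the lowest cuticle and muscle sums of the 4, Rh5 was at 322. In CHD2/+ replicate 2, where the cuticle sum was 1828, Rh5 was at 261, the lowest of the 20 libraries. The values of ninaE, Rh2, Rh3 and Rh7 were also at their lowest of the 20 in that library, so it was not low for Rh5 alone. The part of these tissues in the Rh5 values was not tested. Leaving out single libraries kept the log2 difference of Rh5 in CHD8/+ between -1.0 and -0.83.

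Rh6, the opsin of yellow R8 cells, followed replicate number. The replicate 1 libraries had 1829 normalized counts in ASH1L/+, 2201 in WDFY3/+, 2848 in CHD2/+, 2364 in CHD8/+ and 1758 in wild type. The other 15 libraries spanned 651 to 1399, so the 5 replicate 1 libraries stood above all of them. Of all genes tested, 2.33% had their 5 replicate 1 libraries above the other 15, and Rh6 was the only 1 of the 7 rhodopsins to do so. What set the replicate 1 libraries apart is not given in the sources used here. Against wild type, Rh6 had log2 differences of -0.42 (ASH1L/+), -0.05 (WDFY3/+), -0.30 (CHD2/+) and -0.22 (CHD8/+) (standard error 0.41 each, adjusted p = 0.84 to 1.00 from limma). In the fit with the block that standard error was 0.25, and no call changed. In each of the 4 mutants the replicate 1 library was above, and the other 3 below, all 4 wild type libraries.

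Rh6 and Rh5 thus differed in where their spread lay. For Rh6, replicate number held 66.9% of the sum of squares of the log2 values over the 20 libraries and genotype 8.56%. For Rh5, replicate number held 2.40% and genotype 69.1%. The median gene had 39.5% with replicate number and 18.5% with genotype. The other 5 rhodopsins had 15.2% to 28.0% with replicate number and 11% to 32.7% with genotype. These shares are descriptions with no test.

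**Figure D3:**
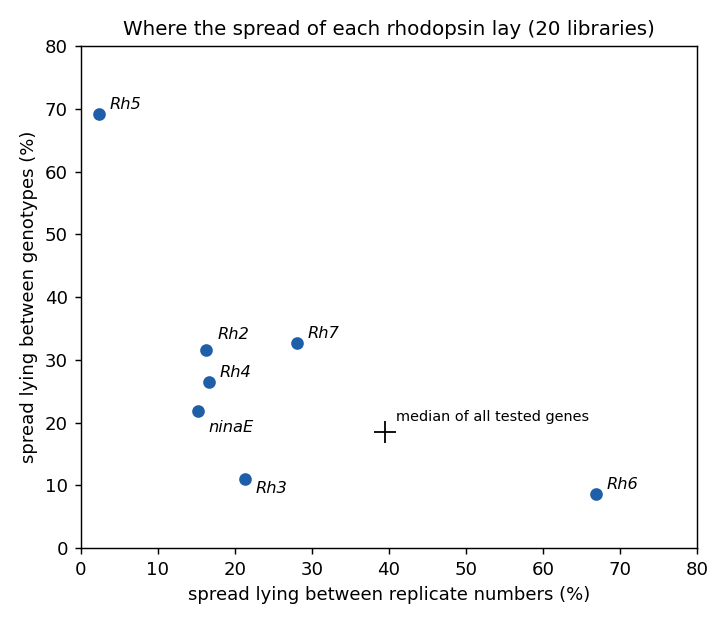
Share of the sum of squares of log2 values over 20 libraries that lay between the 4 replicate numbers (horizontal axis, %) and between the 5 genotypes (vertical axis, %), with a point for each rhodopsin and a cross for the median of all tested genes. Rh5 (2.40% and 69.1%) and Rh6 (66.9% and 8.56%) lie at opposite ends.

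ninaE had 32862, 25876, 20405 and 22688 normalized counts in ASH1L/+, 46566, 28958, 23832 and 19587 in WDFY3/+, 18960.0, 14956, 22843 and 18961 in CHD2/+, and 32195, 15475, 27833 and 30055 in CHD8/+. Wild type had 17886, 22498, 41884 and 25112. The groups overlapped, and the range within wild type alone was wider than that of the group means. The log2 difference was largest in CHD2/+, at -0.45 (standard error 0.34, 95% interval -1.15 to 0.26, adjusted p = 0.73 from limma). In CHD8/+ it was -0.01 (standard error 0.34, 95% interval -0.71 to 0.70, adjusted p = 1.00 from limma).

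Among the R7 opsins, Rh3 is the pale and Rh4 the yellow one. Rh3 had 483, 729, 326 and 632 normalized counts in ASH1L/+, 507, 601, 548 and 369 in WDFY3/+, 443, 250.0, 347 and 732 in CHD2/+, and 324, 503, 446 and 597 in CHD8/+, against 303, 627, 663 and 771 in wild type. Its log2 differences ran between -0.45 and -0.10 with standard errors of 0.36, and each mutant overlapped wild type. Rh4 had 1399, 1540.3, 1699.6 and 1226 normalized counts in ASH1L/+, 1639, 1788, 1551 and 1032 in WDFY3/+, 1662, 1208, 2399.8 and 1569 in CHD2/+, and 2398, 1377, 2740.0 and 2015 in CHD8/+, against 1252, 1896, 1896 and 2477 in wild type. Its log2 differences ran between -0.33 and 0.18 with standard errors of 0.29. The 95% intervals of both genes included 0 in each mutant.

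Rh2, the opsin of the ocelli, was the steadiest of the 7. It spanned 462 to 837 normalized counts over the 20 libraries, a ratio of 1.81 between the highest and the lowest, and 0.688% of all genes tested had a smaller standard deviation on the log2 scale. That ratio was 3.11 for ninaE and 4.38 for Rh6. In ASH1L/+ Rh2 had 486, 537, 666 and 591 normalized counts, against 541, 711, 837 and 656 in wild type. Each ASH1L/+ library was below the wild type library of its own number, but the ranges overlapped and the log2 difference was -0.26 (standard error 0.22, adjusted p = 1.00 from limma). WDFY3/+ had 684, 763, 761 and 672 normalized counts of Rh2, and its log2 difference was 0.08. The log2 difference of Rh2 was -0.19 both in CHD2/+ and in CHD8/+ (standard error 0.22 each).

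Rh7, the brain opsin, was measured at the lowest level. It had 202, 164, 170.4 and 287 normalized counts in WDFY3/+, against 158, 152, 123 and 195 in wild type. Each WDFY3/+ library was above the wild type library of its own number, with 2 of 4 above the whole wild type range. The log2 difference was 0.37 (standard error 0.26, 95% interval -0.17 to 0.91, adjusted p = 1.00 from limma). In the other mutants it was 0.10 in ASH1L/+, -0.16 in CHD2/+ and 0.25 in CHD8/+, none past the test. CHD2/+ replicate 2 held the lowest value of the 20 libraries, 88.9.

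As a group, the 7 rhodopsins had median log2 differences of -0.10 (ASH1L/+), 0.08 (WDFY3/+), -0.30 (CHD2/+) and -0.19 (CHD8/+), beside 0.03, 0.01, -0.02 and -0.01 over all genes tested. In CHD2/+ all 7 estimates were below 0 and none was called, and they stayed below 0 with quantile normalization, with a common library total and without the replicate 1 libraries. Leaving out single libraries brought Rh4 to as much as 0.012 and Rh7 to 0.054 in CHD2/+. The markers of brain neurons in CHD2/+ had a median log2 difference of -0.63, and their part in these values was not tested. In WDFY3/+ 4 of 7 were above 0, which was 3 of 7 with quantile normalization and 1 of 7 without the replicate 1 libraries. With a common library total 2 of 7 were above 0, but the median of all genes then stood at -0.11. Below that median lay 3 of 7, the same number as without that scaling. The members share libraries, so their signs are not independent. In ASH1L/+, WDFY3/+ and CHD2/+ no rhodopsin had all 4 mutant libraries below, or all 4 above, all 4 wild type libraries. Over all genes the shares of that kind were 0.803% below and 0.793% above in ASH1L/+, 0.949% below and 1.27% above in WDFY3/+, and 2.15% below and 3.39% above in CHD2/+.

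Ratios between opsins of the same cell position do not depend on the factor of a library, though they still carry any normalization by gene. They are given without a test. Rh5 made up 12%, 24.1%, 26.0% and 25.6% of Rh5 plus Rh6 in CHD8/+, against 22.0%, 33.4%, 32.5% and 32.9% in wild type. Each CHD8/+ library was below the wild type library of its own number, and the ranges overlapped through wild type replicate 1. The share was 38.9% ± 11 in ASH1L/+, 32.3% ± 6.95 in WDFY3/+, 28.5% ± 11.2 in CHD2/+, 22.0% ± 6.69 in CHD8/+ and 30.2% ± 5.48 in wild type (SD, n = 4 each). By replicate number it was 12% to 23.4% in the 5 replicate 1 libraries, and at least 24.1% in the other 15.

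Rh3 made up 27.0% ± 8.08 of Rh3 plus Rh4 in ASH1L/+, 25.3% ± 1.23 in WDFY3/+, 20.7% ± 8.19 in CHD2/+, 18.9% ± 7.08 in CHD8/+ and 23.5% ± 2.82 in wild type (SD, n = 4 each). The differences between groups were smaller than the spread in ASH1L/+, CHD2/+ and CHD8/+, where single libraries ran between 11.9% and 34.0%. ninaE made up 84.5% ± 1.69 of the summed rhodopsins in ASH1L/+, 84.6% ± 2.94 in WDFY3/+, 80.1% ± 3.59 in CHD2/+, 83.4% ± 2.52 in CHD8/+ and 82.2% ± 4.01 in wild type (SD, n = 4 each). The 7 rhodopsins together took 0.286% to 1.07% of the library total over the 20 libraries, and 0.721% ± 0.222 in wild type (SD, n = 4).

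**Figure D4:**
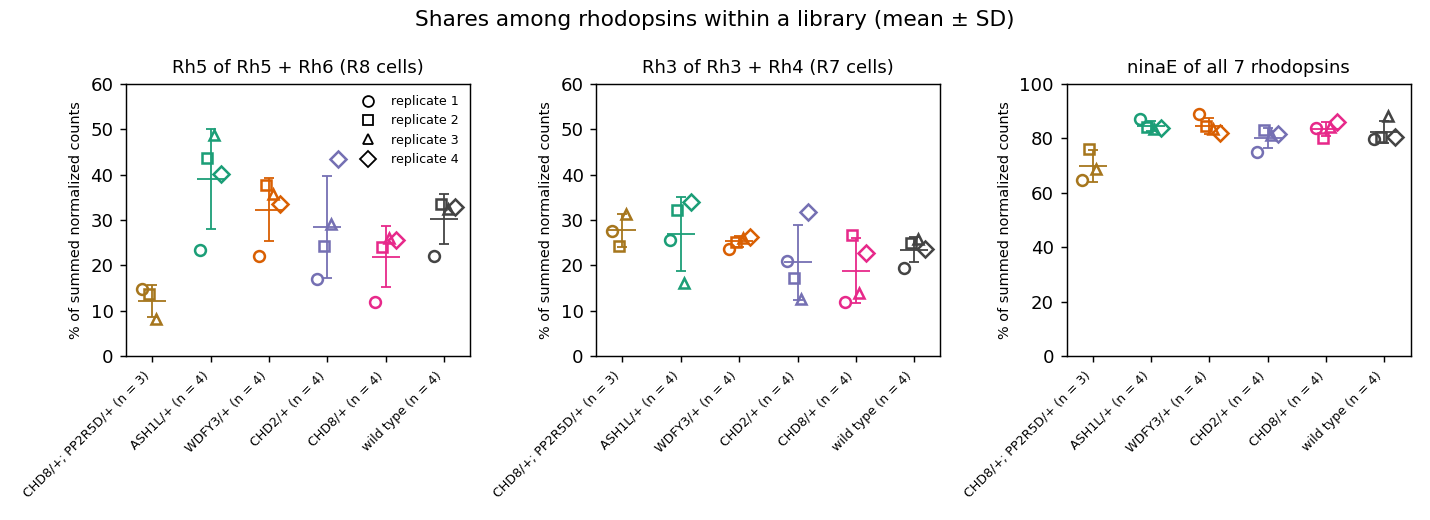
Shares of summed normalized counts within a library (vertical axes, %) for Rh5 among the R8 opsins, Rh3 among the R7 opsins and ninaE among all 7 rhodopsins, in the double heterozygote (n = 3), 4 mutants and wild type (n = 4 each); symbols give the replicate number, and bars the mean and SD. Rh5 takes 8.24% to 14.7% in the double heterozygote and 22.0% to 33.4% in wild type.

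The double heterozygote CHD8/+; PP2R5D/+ addressed how a second mutation, in the phosphatase subunit wrd, sits beside the CHD8 mutation. Its table was scaled apart from the others, so levels are given per 1000000 of the summed values of 12476 genes found in both kinds of table (counts per M), with no test. The mean ratio of the double heterozygote to CHD8/+ had a median of 1.15 over 8960 genes, which is the level against which the members may be read. Rh3 had 446, 231 and 234 per M in the double heterozygote, against 86, 139, 91.1 and 127 in CHD8/+, and 86.1, 162, 156 and 221 in wild type. All 3 double heterozygote libraries were above the 4 CHD8/+ libraries, as were those of 21.7% of all genes compared, while 12.5% lay below. Of the 7 rhodopsins, 1 lay above in this way, none below, and 6 overlapped.

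Rh6 had 859, 578 and 494 per M in the double heterozygote, against 627, 261, 211 and 229 in CHD8/+, and 499.8, 360.4, 327 and 386 in wild type. The CHD8/+ value inside the double heterozygote's span was that of replicate 1. Rh4 had 1165, 725 and 513 per M in the double heterozygote, against 636, 381, 559.6 and 429.9 in CHD8/+. Rh2 had 312, 261 and 149 per M in the double heterozygote, against 162, 150.0, 109 and 149 in CHD8/+, and Rh7 had 70.2, 67.1 and 54.9 in the double heterozygote, against 51.7, 60.6, 33.5 and 35.0 in CHD8/+. For each of these 3 genes the mean was higher in the double heterozygote while the ranges overlapped.

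Rh5 had 149, 91.1 and 44.4 per M in the double heterozygote, against 85.5, 83.1, 74.4 and 78.9 in CHD8/+, and 141, 181, 158 and 189 in wild type. Its values thus spread to either side of the CHD8/+ libraries. Within each library, Rh5 made up 14.7%, 13.6% and 8.24% of Rh5 plus Rh6 in the double heterozygote, which overlapped CHD8/+ and was below all 4 wild type libraries. ninaE had 5499.9, 6257 and 3296 per M in the double heterozygote, against 8543, 4286, 5684 and 6410.5 in CHD8/+. It made up 64.7%, 76.2% and 68.9% of the summed rhodopsins there, against 79.9% to 85.9% in CHD8/+ and 79.9% to 88.2% in wild type. The rhodopsins other than ninaE therefore took 30.1% ± 5.83 of the sum in the double heterozygote (n = 3), 16.6% ± 2.52 in CHD8/+ and 17.8% ± 4.01 in wild type (SD, n = 4 each). The double heterozygote differs from the others both in its table and in its second mutation, and these cannot be told apart. Separation across the tables was common, with 21.7% of all genes compared above all CHD8/+ libraries and 12.5% below. The like share against wild type is not given here.

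**Figure D5:**
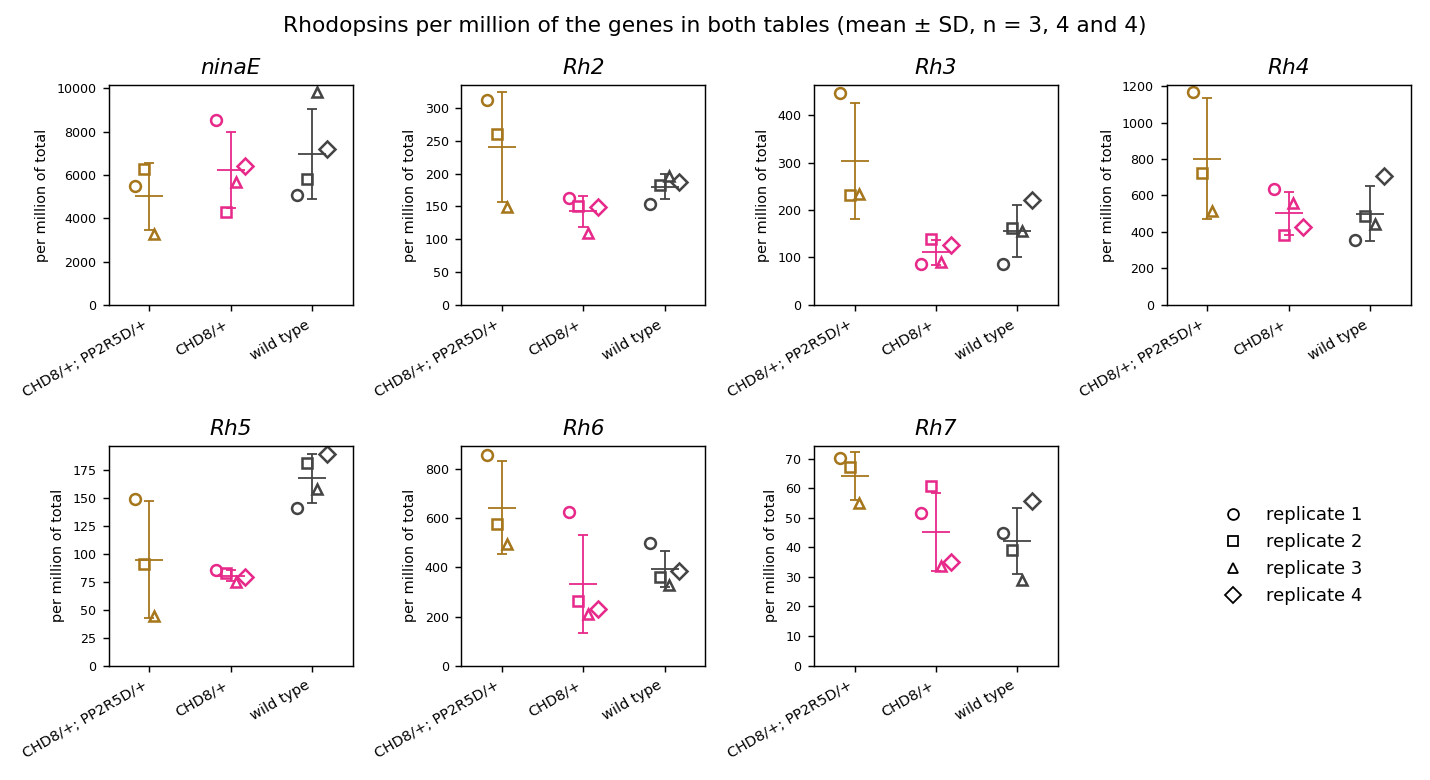
Rhodopsin levels per 1000000 of the summed values of genes in both kinds of table (vertical axes, from 0) in the double heterozygote (n = 3), CHD8/+ and wild type (n = 4 each); symbols give the library number, and bars the mean and SD. The 3 double heterozygote values of Rh3 (231 to 446) lie above the 4 CHD8/+ values (86 to 139), while for Rh5 they span 44.4 to 149.

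Genes that act with the rhodopsins were compared from 12 lists, 97 tested genes in all. No list member was called in any mutant by limma without the block, and 8 of 388 tests were called with it. Of all genes tested, the fit with the block called 0.209% (ASH1L/+), 0.25% (WDFY3/+), 1.21% (CHD2/+) and 0.741% (CHD8/+). Without the block 30 of the 388 had an unadjusted p under 0.05, beside 4.14% of the tests of all genes. Of the 30, 13 were in CHD2/+ and 10 in CHD8/+, where 664 and 359 of all 9588 genes tested had such a p. In the phototransduction cascade, 23 genes that carry the signal from rhodopsin to the channels, median log2 differences were -0.07 (ASH1L/+), 0.15 (WDFY3/+), -0.16 (CHD2/+) and 0.25 (CHD8/+). norpA, the phospholipase C of the cascade, averaged 6927 ± 1861 normalized counts in CHD2/+ and 12243 ± 1439 in wild type (SD, n = 4 each), with a log2 difference of -0.85 (standard error 0.31, adjusted p = 0.56 from limma). inaD, the scaffold that holds norpA, had a log2 difference of -0.95 in CHD2/+ (adjusted p = 0.59 from limma). The 23 cascade genes went both ways in CHD2/+, with 9 estimates above 0 and 14 below, between -0.95 and 0.70. In CHD8/+ 13 were above 0 and 10 below. Arr2, the arrestin that ends rhodopsin signalling, averaged 18396 ± 3759 normalized counts in CHD8/+ and 11007 ± 2139 in wild type (SD, n = 4 each), with a log2 difference of 0.74 (standard error 0.29, adjusted p = 0.98 from limma).

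The 11 genes of chromophore supply and rhodopsin maturation had medians of -0.16, -0.06, 0.45 and 0.05 on the log2 scale in ASH1L/+, WDFY3/+, CHD2/+ and CHD8/+. santa-maria, a scavenger receptor needed to make the chromophore, averaged 469.9 ± 141 normalized counts in CHD2/+ and 167 ± 150.5 in wild type (SD, n = 4 each), with a log2 difference of 1.85 (standard error 0.51, adjusted p = 0.26 from limma). Cnx99A, a calnexin that helps ninaE protein fold, had a log2 difference of -1.09 in CHD2/+ (standard error 0.35, adjusted p = 0.47 from limma). Among 14 tested regulators of rhodopsin choice, 12 had estimates below 0 in CHD2/+ and 11 in CHD8/+, with medians of -0.48 and -0.31, and none was called. Markers of brain neurons went the same way, with 7 of 8 below 0 in CHD2/+ and 6 of 8 in CHD8/+, and medians of -0.63 and -0.37. Their part in the regulator values was not tested. hth, which specifies the facets of the dorsal rim, averaged 2180.3 ± 376 normalized counts in CHD2/+ and 3451 ± 433 in wild type (SD, n = 4 each), at an adjusted p of 0.66 from limma. The R8 regulators melt and wts, which set Rh5 against Rh6, were among the list and neither was called.

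Around the photoreceptors, the 3 corneal lens genes had median log2 differences of 0.62 (ASH1L/+), 0.47 (WDFY3/+), 1.01 (CHD2/+) and 1.75 (CHD8/+). Cpr72Ec, a lens cuticular protein, averaged 898 ± 459 normalized counts in CHD8/+ and 210.3 ± 122 in wild type (SD, n = 4 each). Its log2 difference of 2.12 (standard error 0.47) had adjusted p = 0.073 from limma, and 1.4e-05 with the block, so that it was called in that fit. Crys, a major lens protein, had a log2 difference of 1.75 (standard error 0.46, adjusted p = 0.19 from limma, and 0.048 with the block). Cpr72Ec was called with the block in WDFY3/+ and CHD2/+ too, at log2 differences of 1.70 and 1.37. No relation between these genes and Rh5 was tested. The 7 genes of photoreceptor structure and histamine transmission summed to 2735 to 4838 normalized counts in CHD8/+ and 2599 to 3315 in wild type. Their members went both ways in CHD8/+, with 4 estimates above 0 and 3 below, between -1.12 and 0.84 on the log2 scale.

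The remaining lists hold markers of other parts of the head. In the order ASH1L/+, WDFY3/+, CHD2/+, CHD8/+, the median log2 difference of 8 brain neuron genes was -0.01, 0.22, -0.63 and -0.37. That of 8 cuticle genes was -0.13, 0.21, 0.47 and 1.16, and that of 6 tested muscle genes -0.04, -0.06, -0.20 and 0.62. kkv, the chitin synthase of the cuticle, was called in CHD8/+ with the block (adjusted p = 0.046 from limma, and 0.42 without it). In CHD8/+ the medians were 0.34 for 5 glial genes, 0.53 for 3 eye pigment transporters, 0.10 for 7 fat body genes and -0.13 for 2 reference transcripts.

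Across the 20 libraries, the genes most like a rhodopsin were ranked by Pearson's r of their log2 values, as a description over libraries that share genotypes and replicate numbers. The 5 genes most like Rh5 were wrd (r = 0.76), CG10803, CG6765, CG7246 and CG1582 (r = 0.70). For Rh6 the closest with a name were peg (r = 0.84), Gnf1 (r = 0.83), sstn (r = 0.81) and Upf3 (r = 0.80). Rh3 was most like nAChRbeta2 (r = 0.86), a subunit of an acetylcholine receptor, and Cpn (r = 0.82), a calcium-binding protein of photoreceptors, followed by Obp49a, asRNA:CR46104 and CG3436. Rh7 was most like Mur89F (r = 0.85), CG4896, bol, CG14042 and lncRNA:CR44702. The closest to ninaE was bdwf (r = 0.73), to Rh2 wfs1 (r = 0.70) and to Rh4 CG42846 (r = 0.70). No rhodopsin was among the 5 genes most like another. Among themselves the 7 had r between -0.11 and 0.56, the highest for Rh3 with Rh5, the 2 opsins of pale facets, and the Rh5 and Rh6 pair stood at 0.12.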

How the data were processed

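RNA of adult heads was reverse transcribed from the 3' end and sequenced. The authors quantified reads with Salmon 0.12.0 on BDGP6, summed them by gene and used DESeq2, with a batch term whose value per library is not given in the sources used here. What the authors deposited is a signal, counts estimated by Salmon and normalized by library and by gene. The 5 tables of 20 libraries share a scale, and the table of the double heterozygote has its own.

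Values were transformed to log2 after adding 1, and genes with at least 10 in at least 4 libraries were kept. limma 3.58.1 (under R 4.3.3) fitted 1 mean per genotype, letting the variance follow the level, and tests were two-sided. The fit was tested on simulated data, with 200 of 9588 genes changed in CHD8/+. It called 62% of the 4-fold changes and 14% of the 2-fold changes. A gene that was not called may thus still have changed. The changed genes were drawn at random from all tested genes, so these rates are averages and not those of the rhodopsins. The median standard error of all genes was 0.44, and those of the rhodopsins were 0.22 to 0.41. Python 3.11.15 with numpy 2.4.6 and pandas 2.3.3 wrote the tables, and matplotlib 3.10.9 drew the figures. Libraries are the labels' biological replicates.

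The members and lists were chosen with earlier results of these data known. Named genes were the 7 rhodopsins, in each list up to 4 members with the smallest p and any called, and for each rhodopsin the 5 genes with the highest correlation. melt, wts and sina are named outside that rule, for their roles or position.

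Replicate numbers were taken to pair libraries where each same-numbered library deviated from its group mean together with wild type (r over 0.1). This held for ASH1L/+ (r = 0.34 to 0.78), WDFY3/+ (0.32 to 0.74) and CHD8/+ (0.21 to 0.73), and not for CHD2/+ (0.07 to 0.46). The highest r was with the own number in 4, 4, 2 and 3 of 4 libraries of ASH1L/+, WDFY3/+, CHD8/+ and CHD2/+, and CHD8/+ replicate 4 reached 0.58 with another number against 0.21 with its own. The alternatives were other added values, filters and scalings, 2 groups only, the replicate block, and leaving out libraries.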

Additional observations from a re-analysis of the deposited data

Results flagged for a closer look

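Within groups of 4 libraries, 55 sets of values (7 rhodopsins and 4 shares in 5 groups) were searched for a library far from its 3 fellows, and 7 were found. Chance finds about 1 in 20 such sets. Among them were 3 replicate 1 libraries of Rh6, at 2201 normalized counts in WDFY3/+ (others 1122 to 1283), 2364 in CHD8/+ (others 944 to 1073) and 1758 in wild type (others 1348 to 1399). The share of Rh5 in Rh5 plus Rh6 stood apart in replicate 1 of CHD8/+, at 12% (others 24.1% to 26.0%), and of wild type, at 22.0% (others 32.5% to 33.4%). WDFY3/+ replicate 2 had 777 normalized counts of Rh5 (others 623 to 643). In wild type replicate 3, ninaE took 88.2% of the summed rhodopsins (others 79.9% to 80.4%).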

How the results depend on the processing

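The number of rhodopsins called stayed at 0 in each comparison and in the F test under every alternative run. The log2 difference of Rh5 in CHD8/+ stayed negative in all 17 of its alternatives, between -1.0 and -0.83, with adjusted p between 0.13 and 0.90 from limma. Of 476 alternative values of the 28 differences, 26 turned in sign, in 11 differences whose size was at most 0.18. With a common library total the median of all genes moved by -0.31 (ASH1L/+), -0.13 (WDFY3/+), -0.099 (CHD2/+) and -0.16 (CHD8/+), to -0.28, -0.11, -0.12 and -0.17, and values under it are given relative to that median. For differences that turned, the cause was not tested.

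Genes called with replicate number as a block were 20 (ASH1L/+), 24 (WDFY3/+), 116 (CHD2/+) and 71 (CHD8/+), and 115 in the F test, against 9, 5, 18, 26 and 30 without it. The block changed no rhodopsin's call and left each log2 difference as it was. In CHD2/+, whose numbers did not count as pairing, it called santa-maria, Cpr72Ec, eys and Gad1. With the 2 groups only, 4 genes were called in ASH1L/+, 7 in CHD2/+ and 14 in CHD8/+. Without a filter, CHD8/+ had 17 calls and WDFY3/+ 3, with quantile normalization WDFY3/+ had 8, and with at least 50 in 4 libraries 15 passed the F test. Leaving out replicate 1 of every genotype, chosen after seeing the data, gave 9 in WDFY3/+, 9 in CHD2/+, 14 in CHD8/+ and 14 in the F test. Leaving out single libraries gave 2 to 5 called in WDFY3/+, 7 to 18 in CHD2/+ and 17 to 45 in the F test. In CHD8/+ it gave 7 without its replicate 4 and 41 without its replicate 1.

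In sign, ninaE in WDFY3/+ turned to -0.14 with quantile normalization. Without replicate 1 of every genotype, the log2 difference was -0.27 for ninaE, -0.00054 for Rh2 and -8.3e-05 for Rh5 in WDFY3/+, and -0.076 for Rh4 in CHD8/+. With a common library total ninaE in CHD8/+ stood at 0.00026. Over single libraries left out, the log2 difference ran from -0.20 to 0.21 for ninaE, -0.40 to 0.12 for Rh3 and -0.015 to 0.21 for Rh7 in ASH1L/+. In WDFY3/+ it ran from -0.10 to 0.38 for ninaE, -0.024 to 0.19 for Rh2, -0.028 to 0.14 for Rh5 and -0.26 to 0.066 for Rh6. It ran from -0.32 to 0.012 for Rh4 and -0.31 to 0.054 for Rh7 in CHD2/+, and from -0.18 to 0.23 for ninaE and -0.0042 to 0.37 for Rh4 in CHD8/+. For shares among rhodopsins the alternatives left out single libraries, which cannot move a mean of 3 or 4 libraries by 1 SD. The mean share of Rh5 in Rh5 plus Rh6 then ran from 20.6% to 25.3% in CHD8/+ and from 29.1% to 32.9% in wild type.

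With 4 libraries a group, differences whose printed interval includes 0 cannot be told from 0. The intervals are not adjusted for the number of tests, so leaving out 0 is not by itself a call. The kit reads 3' ends and the files hold no whole reads, so counting error could not be separated from other spread.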
